A study of Mus musculus with 8 samples.

Results

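The ephrin, Slit-Robo and netrin systems were followed in the nuclei of cortical GABAergic neurons, the inhibitory neurons of the cortex, of hypothyroid mice with and without thyroid hormone (TH). The members were chosen by symbol: the Eph receptors, the ephrins, Slit1 to Slit3, Robo1 to Robo4, the netrins and netrin-G genes, the Unc5 genes, Dcc and Neo1. In all, 41 of the 55341 symbols in the count files matched, and 38 of these passed the filter on low counts and were tested. The PTU group (mice 9 to 12, n = 4) consisted of juvenile mice left hypothyroid because their dams received propylthiouracil (PTU), which blocks TH synthesis, during gestation. Mice 13 to 16 made up the PTU+TH group (n = 4), were likewise hypothyroid and were injected with TH into the peritoneum 24 h before the brain was taken. All mice thus share the PTU exposure and carry a Cre-dependent reporter that puts a nuclear fluorescent protein into GABAergic neurons, and mice without PTU were not analysed here. The Cre driver, the exact age, the sex, the litters and any batch are not given in the sources used here. Each library is labelled as 1 mouse.

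These families guide growing axons and migrating neurons. Ephrins are ligands held on the cell surface, anchored by a lipid in the A class and by a transmembrane segment in the B class, and they signal through the Eph receptor tyrosine kinases, which mostly pair within their class. Slits are secreted and mostly repel cells through Robo receptors, while netrin-1 attracts through Dcc and repels through the Unc5 receptors. In the developing forebrain, members of these systems help to steer migrating interneurons and remain on synapses later.

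The libraries held 21.8 to 29.1 M counts. The GABAergic list (10 genes) summed to 5970 to 8002 CPM (counts per 1 M counts of the scaled library) in PTU and to 6080 to 7308 CPM in PTU+TH, against 446.1 to 537.9 and 442.9 to 536.6 CPM for the excitatory list (10 genes). Camk2a and Cux2 made up most of the excitatory sums, with means of 227 and 174 CPM in PTU and 213 and 174 CPM in PTU+TH. Slc17a7 varied more for its level, from 15.8 to 51.4 CPM in PTU and from 23.9 to 57.9 CPM in PTU+TH. The list of interneuron class markers (11 genes) differed between the groups, with sums of 1778 to 1933 CPM in PTU and 1510 to 1648 CPM in PTU+TH, which did not overlap. By edgeR, Syt2 was called higher in PTU+TH and Calb1 and Htr3a lower (log2 fold changes 1.15, -0.73 and -1.11; adjusted p = 0.00603, 0.00328 and 0.0344), so that 3 of the 11 were called, where 2.12% of all tested genes were. An unadjusted p under 0.05 was found for 7 of the 11, and for 12.8% of all tested genes. The part of these markers in the results on the guidance genes was not tested. Hr, a gene known to be induced by TH, was at 1.05 to 2.22 CPM in the PTU libraries and at 24.7 to 28.5 CPM in the PTU+TH libraries. Counts of 4 Y-linked genes were 0 in PTU+TH mice 15 and 16 and above 0 in the other 6 libraries, so 2 of the 4 PTU+TH libraries and none of the PTU libraries lacked them. In bulk RNA, fewer cells of a type and less RNA per cell cannot be told apart, and this holds for every value given here.

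Of the 38 tested members, 6 differed between the groups at an adjusted p under 0.05 (edgeR quasi-likelihood test, Benjamini-Hochberg adjustment over 17355 genes), where 2.12% of all tested genes did. The receptors Ephb1, Epha4, Epha3 and Robo3 and the ligand Ntn4 were higher in PTU+TH, and the ligand Slit1 was lower. In the higher direction, 5 members were called, against 1.49% of all genes, and in the lower direction 1, against 0.634%. The groups did not overlap in 10 members, and 8.71% of all tested genes had such a gap. Leaving out PTU mouse 11 or 12, or PTU+TH mouse 13, 15 or 16, brought the number of called members to 3. In these fits 295, 233, 238, 182 and 209 of all tested genes were called, against 368 with no library left out. The 6 libraries holding Y-linked counts gave 1 called member, Ephb1, where 0.318% of all genes were called. DESeq2 called 8 members (4.27% of all genes) and limma voom 5 (2.03%). The log2 fold changes of the tested members ran from -0.59 to 2.41 with a median of 0.03, beside a median of -0.01 over all tested genes, and 21 were above 0, where 48.6% of all genes were. The median size without sign was 0.22 for the members and 0.15 for all genes. At an unadjusted p under 0.05 there were 11 members, against 12.8% of all genes. Of these, 7 were higher (6.59% of all genes) and 4 lower (6.17%).

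**Figure D1:**
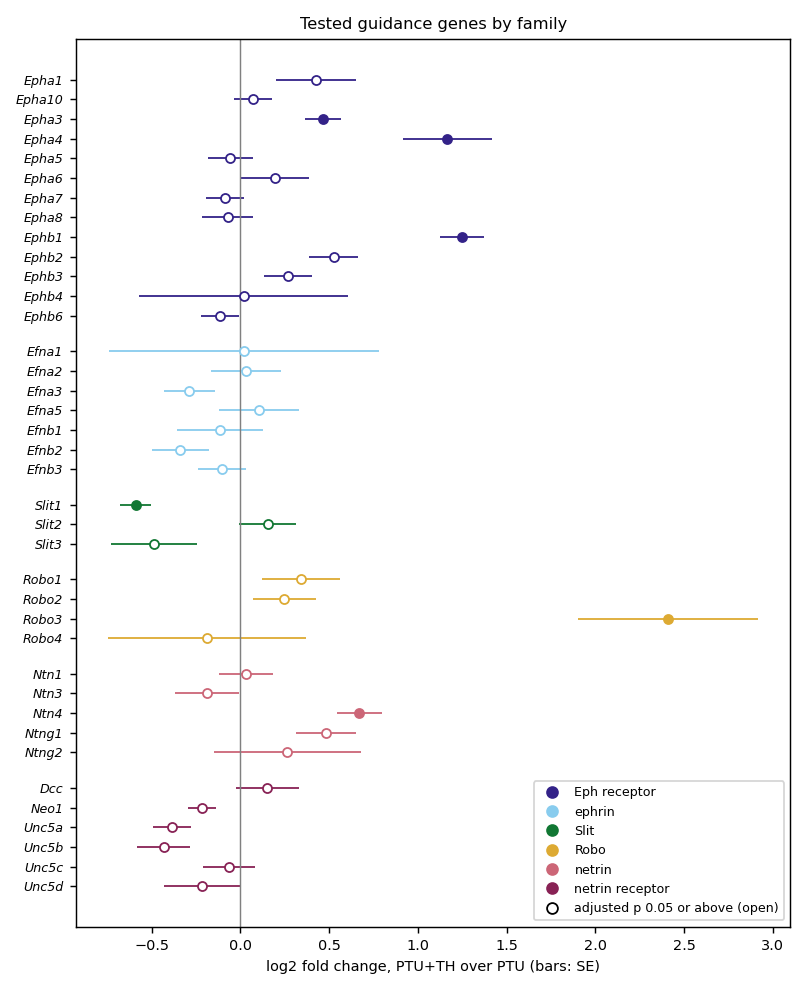
Log2 fold change of PTU+TH over PTU for each of the 38 tested guidance genes, grouped by family, with bars of 1 SE. Filled points mark the 6 genes with an edgeR adjusted p under 0.05; Robo3 lies farthest to the right at 2.41, and Slit1 is the filled point left of 0, at -0.59.

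Ephb1 had the smallest p of the members. It encodes a receptor for B class ephrins and lies on chromosome 9 (101922128 to 102354693, minus strand, GRCm38). The PTU libraries of mice 9 to 12 held 35.2, 37.5, 46.7 and 38.3 CPM, and the PTU+TH libraries of mice 13 to 16 held 82.1, 82.0, 96.4 and 113.6 CPM. Every PTU+TH library was thus well above the highest PTU library. The log2 fold change was 1.25 (SE 0.12, n = 4 per group, adjusted p = 0.000145 in edgeR). Ephb1 was called under all 17 alternatives run, with adjusted p-values of at most 0.00814, and that highest value came from the 6 libraries holding Y-linked counts.

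Epha4, a receptor that binds ephrins of both classes and is found on neurons and astrocytes, lies on chromosome 1 (77367185 to 77515088, minus strand). Its PTU libraries were at 38.5, 33.4, 24.9 and 19.1 CPM and its PTU+TH libraries at 85.2, 42.6, 74.1 and 58.9 CPM. The groups did not overlap, but PTU+TH mouse 14 was close to PTU mouse 9. The log2 fold change was 1.17 (SE 0.25, n = 4 per group, adjusted p = 0.0466 in edgeR). The call was lost without PTU mouse 10, 11 or 12 (adjusted p = 0.0678, 0.14 and 0.0586), without PTU+TH mouse 13, 15 or 16 (0.0995, 0.114 and 0.0959), with library totals alone (0.0832), without the filter (0.186), with an offset for gene length (0.137) and over the 6 libraries holding Y-linked counts (0.245).

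Epha3, a receptor for A class ephrins on chromosome 16 (63543534 to 63864175, minus strand), was also higher in PTU+TH. The PTU libraries were at 71.9, 86.3, 69.6 and 73.7 CPM and the PTU+TH libraries at 101.1, 92.4, 103.7 and 119.7 CPM. The groups were separated by the gap between PTU mouse 10 and PTU+TH mouse 14. The log2 fold change was 0.47 (SE 0.10, n = 4 per group, adjusted p = 0.0313 in edgeR). The call was lost without PTU mouse 11 or 12 (adjusted p = 0.0797 and 0.0894), without PTU+TH mouse 13, 15 or 16 (0.0666, 0.0873 and 0.106), with library totals alone (0.0982), with the offset for gene length (0.157) and over the 6 libraries holding Y-linked counts (0.33).

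**Figure D2:**
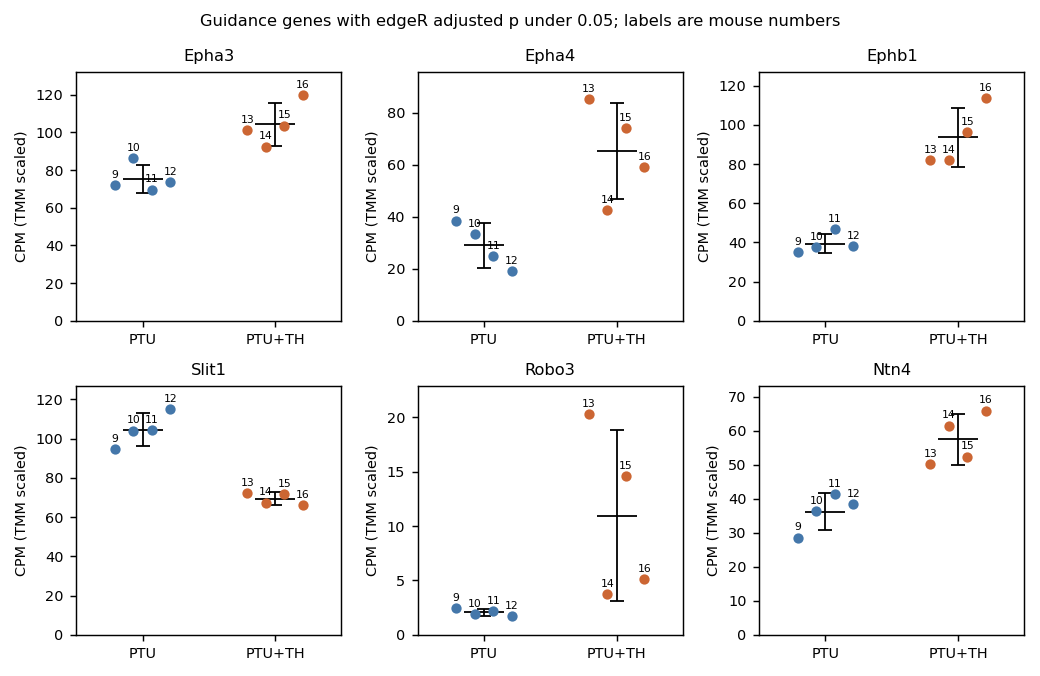
CPM of the 6 called guidance genes in each library, with the mouse number beside each point and the group mean and SD (n = 4) in black. In each panel the 4 points of a group lie on one side of all 4 points of the other. Relative to its mean, Robo3 shows the widest spread in PTU+TH, from 3.75 to 20.3 CPM.

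The stretches just before the transcription start are printed for 5 of the 6 called members, all but Slit1, so that the letters a TH receptor is known to bind can be looked for by eye. They come from RefSeq (GRCm38.p6), and that of Ntn4 begins inside the gene body as GENCODE draws it. They read 5′ to 3′ with transcription and end at the start, or, for Robo3, at the edge of its first annotated exon in GENCODE. The RefSeq table held windows for 36 of the 41 members. Capitals mark AGGTCA, the element bound by TH receptors, and the core promoter letters CCAAT and GGGCGG, on either strand (these last 2 were added after the windows had been read), so that ATTGG and CCGCCC stand for them on the other strand.
Ephb1, chr9:102354694-102354943, minus strand: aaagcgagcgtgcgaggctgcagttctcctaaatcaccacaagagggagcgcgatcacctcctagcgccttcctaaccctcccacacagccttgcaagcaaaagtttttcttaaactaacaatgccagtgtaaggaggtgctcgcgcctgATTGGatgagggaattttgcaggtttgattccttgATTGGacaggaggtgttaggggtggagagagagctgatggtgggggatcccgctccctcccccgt
Epha4, chr1:77515089-77515338, minus strand: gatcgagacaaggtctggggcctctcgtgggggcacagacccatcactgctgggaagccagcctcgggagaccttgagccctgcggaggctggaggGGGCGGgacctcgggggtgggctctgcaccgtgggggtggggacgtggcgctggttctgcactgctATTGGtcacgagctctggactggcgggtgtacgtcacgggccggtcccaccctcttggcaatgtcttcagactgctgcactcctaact
Epha3, chr16:63864176-63864425, minus strand: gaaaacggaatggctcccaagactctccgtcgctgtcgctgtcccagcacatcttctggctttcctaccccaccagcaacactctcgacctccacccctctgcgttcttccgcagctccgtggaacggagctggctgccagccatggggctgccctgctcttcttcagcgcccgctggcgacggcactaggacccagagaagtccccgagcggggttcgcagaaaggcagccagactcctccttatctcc
Ntn4, chr10:93640799-93641048, plus strand: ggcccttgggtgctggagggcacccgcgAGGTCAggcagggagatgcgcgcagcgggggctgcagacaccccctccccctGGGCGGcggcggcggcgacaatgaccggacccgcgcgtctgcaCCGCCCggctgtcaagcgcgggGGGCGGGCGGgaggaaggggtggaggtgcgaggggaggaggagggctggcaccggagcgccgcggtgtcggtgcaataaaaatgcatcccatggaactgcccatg
Robo3, chr9:37433247-37433425, minus strand: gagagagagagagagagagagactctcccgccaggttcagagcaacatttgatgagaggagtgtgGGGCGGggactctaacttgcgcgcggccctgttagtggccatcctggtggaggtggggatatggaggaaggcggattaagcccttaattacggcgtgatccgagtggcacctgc
Only the Ntn4 stretch of these 5 held AGGTCA. Over the first 250 bases of all 32851 RefSeq windows, 14% held AGGTCA, and 4 of the 41 windows of members did (9.76%), those of Epha2, Ntn4, Ntn5 and Robo4. The paired element, 2 copies of AGGTCA in the same direction with 4 free bases between, was in 0 of the 41 windows and in 5 of the 32851. CCAAT was found 2 times before Ephb1 and 1 time before Epha4, and 36.6% of the members' windows held it, as did 33.8% of all. GGGCGG was found 4 times before Ntn4, with 2 of these overlapping, and 1 time each before Epha4 and Robo3; 68.3% of the members' windows held it, against 32.7% of all. AGGTCA overlapped neither of the other 2 in these stretches. These matches describe letters in short windows and say nothing of binding.

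Of the other Eph receptors, Ephb2, which also binds B class ephrins, was the nearest to the threshold. Its PTU libraries were at 41.8, 63.0, 66.4 and 66.3 CPM and its PTU+TH libraries at 75.9, 83.8, 85.9 and 96.0 CPM, so that the groups did not overlap and PTU mouse 9 stood below the rest. edgeR did not call it (log2 fold change 0.53, SE 0.14, adjusted p = 0.0758). It was called without PTU mouse 9 (0.0363), with DESeq2 (0.0237), without the filter on low counts (0.0343) and with the offset for gene length (0.00563). Among the 5 tested EphB genes, Ephb3 had a log2 fold change of 0.27 (SE 0.14, adjusted p = 0.458 in edgeR) and Ephb6, which lacks kinase activity, one of -0.12 (SE 0.11, 0.748).

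The other A class receptors were not called. Epha6 was the Eph receptor with the highest mean CPM, with 264.2, 294.4, 455.8 and 437.5 CPM in PTU and 368.3, 342.6, 431.6 and 518.3 CPM in PTU+TH. Its groups overlapped widely (log2 fold change 0.19, SE 0.19, adjusted p = 0.778 in edgeR). Epha5, Epha7, Epha8 and Epha10 had log2 fold changes between -0.09 and 0.07, and Epha1, with 2.14 to 3.95 CPM over all libraries, one of 0.42 (SE 0.23, adjusted p = 0.489 in edgeR). Epha10, which also lacks kinase activity, was at 200.7 to 270.6 CPM in PTU, compared with 233.7 to 259.8 CPM in PTU+TH. In all, 3 of 13 tested Eph receptors were called higher and 0 lower, where 1.49% and 0.634% of all genes were, with a family median of 0.19.

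Of the 7 tested ephrins, the ligands of these receptors, 0 were called by edgeR, by DESeq2 or by limma voom, which called 2.12%, 4.27% and 2.03% of all genes. An unadjusted p under 0.05 in edgeR was found for 0 of the 7 and for 12.8% of all genes. Their log2 fold changes ran from -0.34 to 0.10 with a median of -0.11. Efnb2, the transmembrane ligand known for its role in vessels and neurons, had the smallest p: 43.1, 37.4, 29.0 and 25.4 CPM in PTU against 24.6, 23.8, 26.7 and 31.8 CPM in PTU+TH. The lowest PTU libraries lay inside the PTU+TH range (log2 fold change -0.34, SE 0.16, adjusted p = 0.411 in edgeR). Efna5, the ephrin with the highest mean CPM, was at 142.8, 148.1, 265.1 and 200.9 CPM in PTU, compared with 159.8, 158.6, 222.9 and 271.5 CPM in PTU+TH. Its spread within each group was far larger than the difference of the group means (log2 fold change 0.10, SE 0.23, adjusted p = 0.928 in edgeR). Efna3 and Efnb3 had log2 fold changes of -0.29 and -0.11 (SE 0.14 and 0.13; adjusted p = 0.44 and 0.847 in edgeR). Whether receptors and ligands differ in their response was not tested.

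Slit1, the secreted ligand of Robo1 and Robo2, was the called member that was lower in PTU+TH. It lies on chromosome 19 (41600257 to 41743665, minus strand). The PTU libraries were at 94.5, 104.2, 104.5 and 115.1 CPM and the PTU+TH libraries at 72.3, 67.5, 71.9 and 66.0 CPM. The PTU+TH libraries were close to each other and all below the lowest PTU library. Slit1 fell by 0.59 on the log2 scale (SE 0.09, n = 4 per group, adjusted p = 0.00263 in edgeR) and was called under 16 of 17 alternatives, the exception being the 6 libraries holding Y-linked counts (log2 fold change -0.58, adjusted p = 0.0751).

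The other Slit genes were not called. Slit2, the Slit with the highest mean CPM, was at 216.9, 215.8, 345.3 and 311.6 CPM in PTU, compared with 268.8, 288.9, 295.6 and 357.8 CPM in PTU+TH (log2 fold change 0.15, SE 0.16, adjusted p = 0.799 in edgeR). Slit3 was at 132.6, 139.2, 284.6 and 214.5 CPM in PTU, compared with 128.5, 104.7, 151.8 and 164.6 CPM in PTU+TH. PTU mice 11 and 12 were above every other library, while mice 9 and 10 lay among the PTU+TH values (log2 fold change -0.49, SE 0.24, adjusted p = 0.457 in edgeR). With the offset for gene length Slit3 was called lower (log2 fold change -0.50, adjusted p = 0.0143).

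Robo3 had the largest fold change of all members. It encodes a receptor known from axons that cross the midline, and in mammals it binds Nell2 rather than Slits. The gene lies on chromosome 9 (37415669 to 37433246, minus strand) and shares no base with another gene. The PTU libraries held 67, 50, 44 and 39 counts (2.44, 1.88, 2.18 and 1.71 CPM), and the PTU+TH libraries held 481, 109, 322 and 108 counts (20.3, 3.75, 14.6 and 5.14 CPM). All PTU+TH libraries were above all PTU libraries, with mice 13 and 15 far above mice 14 and 16. The log2 fold change was 2.41 (SE 0.51, n = 4 per group, adjusted p = 0.0408 in edgeR). The call was lost without any 1 of PTU mice 9 to 12 (adjusted p from 0.0918 to 0.125), without PTU+TH mouse 13 or 15 (0.0507 and 0.0929), with limma voom (0.12), without the filter (0.175) and over the 6 libraries holding Y-linked counts (0.103).

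The libraries of mice 13 and 15 were also high in markers of other cell types. The 6 astrocyte genes summed to 226.1, 240.6, 179.0 and 125.0 CPM in PTU and to 258.6, 127.2, 366.4 and 195.1 CPM in PTU+TH, with Gfap listed at 0. The 8 endothelial genes summed to 57.7, 168.8, 49.2 and 36.4 CPM in PTU and to 91.3, 37.2, 119.0 and 52.0 CPM in PTU+TH. PTU mouse 10 had the highest endothelial sum of all libraries. Mice 13 and 15 were also the highest PTU+TH libraries in the oligodendrocyte list (124.9, 94.2, 192.7 and 118.4 CPM in mice 13 to 16), the oligodendrocyte precursor list (18.7, 10.4, 33.0 and 12.8 CPM), the mural list (57.4, 20.5, 72.4 and 27.3 CPM) and the microglia list (68.0, 60.7, 77.1 and 59.5 CPM). In PTU, these lists ran from 96.2 to 123.2, from 8.27 to 24.0, from 18.4 to 102.0 and from 49.9 to 69.4 CPM. Of these lists, the microglia list had 1 gene at 0 in all libraries, and the other 3 had 0. The part of RNA of these cell types in the differences of Robo3 and Epha4 was not tested. Of the 3 other genes nearest to Robo3, Hepacam, an astrocyte gene, ran from 5.60 to 9.86 CPM in PTU and from 5.53 to 11.8 CPM in PTU+TH (adjusted p = 0.966 in edgeR). With the astrocyte sum as a covariate, the log2 fold change of Robo3 was 1.92 (adjusted p = 0.0177 in edgeR) and that of Epha4 1.00 (0.0019). With the endothelial sum, they were 2.16 (0.029) and 1.12 (0.00529).

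**Figure D3:**
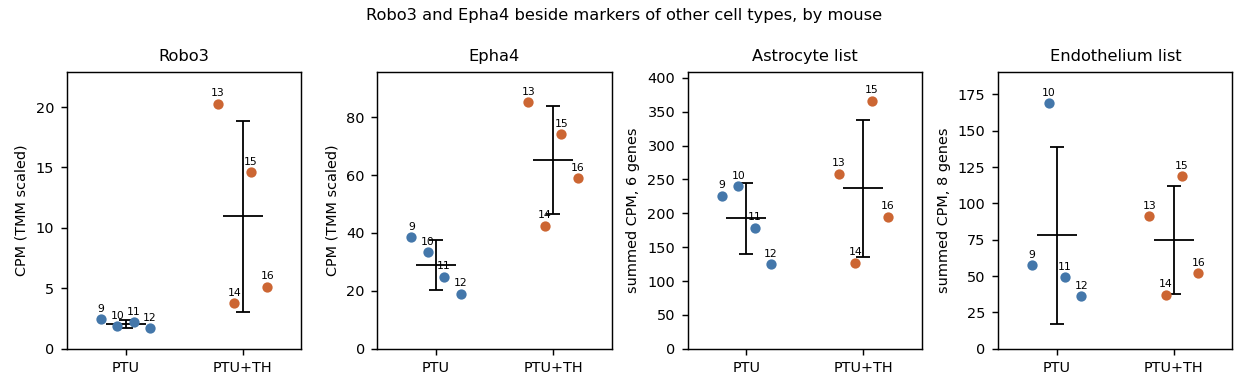
Robo3 and Epha4 in CPM and the summed CPM of the astrocyte and endothelium lists in each library, with mouse numbers and the group mean and SD (n = 4). Mice 13 and 15 are the highest PTU+TH libraries in all 4 panels, and PTU mouse 10 is the highest library in the endothelium list, at 168.8 CPM.

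Robo1 and Robo2, the main Slit receptors of neurons, were the members with the highest mean CPM. Robo1 was at 463.1, 552.6, 936.0 and 870.5 CPM in PTU, compared with 754.3, 807.6, 906.6 and 1106 CPM in PTU+TH. PTU mice 9 and 10 were below and PTU mice 11 and 12 inside the PTU+TH range (log2 fold change 0.34, SE 0.22, adjusted p = 0.605 in edgeR). Robo2 ran from 466.4 to 766.7 CPM in PTU and from 680.6 to 885.7 CPM in PTU+TH (log2 fold change 0.25, SE 0.18, adjusted p = 0.646 in edgeR). With the offset for gene length, Robo1 was called higher (log2 fold change 0.32, adjusted p = 0.0252) and Robo2 was not (0.21, 0.0771).

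Ntn4, a netrin with a domain structure close to laminins and a part of basement membranes, was the called netrin. It lies on chromosome 10 (93640681 to 93747207, plus strand). The PTU libraries were at 28.6, 36.4, 41.4 and 38.4 CPM and the PTU+TH libraries at 50.1, 61.5, 52.4 and 65.9 CPM. All PTU+TH libraries were above the highest PTU library, that of mouse 11. The log2 fold change was 0.67 (SE 0.13, n = 4 per group, adjusted p = 0.0144 in edgeR). The call was lost without PTU+TH mouse 14 or 16 (adjusted p = 0.0507 and 0.0605) and over the 6 libraries holding Y-linked counts (0.178). With the endothelial sum as a covariate the log2 fold change of Ntn4 was 0.67 (adjusted p = 0.0122 in edgeR), and the part of endothelial RNA in this difference was not tested.

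The other netrins were not called. Ntng1, which encodes the membrane-anchored netrin-G1 and pairs with Lrrc4c, was at 23.5, 34.2, 42.6 and 38.9 CPM in PTU, compared with 45.5, 40.8, 49.5 and 58.2 CPM in PTU+TH. The groups overlapped only through PTU mouse 11 and PTU+TH mouse 14 (log2 fold change 0.48, SE 0.17, unadjusted p = 0.0145 and adjusted p = 0.219 in edgeR). It was called with the offset for gene length (log2 fold change 0.45, adjusted p = 0.0147). Ntn1, the classic secreted netrin, ran from 14.4 to 20.7 CPM in PTU and from 15.1 to 20.4 CPM in PTU+TH (log2 fold change 0.03, SE 0.15, adjusted p = 0.974 in edgeR). Ntn3 had a log2 fold change of -0.19 (SE 0.18, adjusted p = 0.763 in edgeR), and 58% of its body is free of other genes.

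Among the 6 netrin receptors, 0 were called by edgeR or limma voom, and 1, Unc5a, was called lower by DESeq2 (adjusted p = 0.0253). Over all genes, edgeR called 2.12%, limma voom 2.03% and DESeq2 4.27%. At an unadjusted p under 0.05 there were 3, all lower in PTU+TH, where 6.17% of all genes were. In these 3 the groups did not overlap, as in 8.71% of all genes. Unc5a, a receptor known for repulsion by netrin-1, was at 40.1, 37.5, 34.9 and 39.0 CPM in PTU, compared with 33.1, 24.9, 28.6 and 29.2 CPM in PTU+TH (log2 fold change -0.39, SE 0.11, adjusted p = 0.0898 in edgeR). Unc5b was at 14.4, 16.5, 14.1 and 20.1 CPM in PTU, compared with 10.1, 12.4, 12.4 and 13.3 CPM in PTU+TH (log2 fold change -0.43, SE 0.15, adjusted p = 0.205 in edgeR). Neo1, which encodes neogenin, a receptor for netrins and for the RGM proteins, was at 94.4, 98.1, 108.7 and 97.6 CPM in PTU, compared with 89.0, 86.5, 84.8 and 83.3 CPM in PTU+TH. These 3 differences were small but in the same direction in every pair of a PTU and a PTU+TH library (Neo1: log2 fold change -0.21, SE 0.08, adjusted p = 0.243 in edgeR). Of the receptors with the highest mean CPM, Unc5d held 420.3, 478.1, 824.6 and 720.6 CPM in PTU against 441.0, 471.4, 523.8 and 665.6 CPM in PTU+TH. Dcc, the attractive netrin-1 receptor, ran from 354.8 to 607.9 CPM in PTU and from 462.8 to 660.1 CPM in PTU+TH. Unc5c, Unc5d and Dcc had log2 fold changes of -0.06, -0.22 and 0.15 (SE 0.15, 0.21 and 0.18; adjusted p = 0.933, 0.775 and 0.828 in edgeR).

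A few members had low counts and were highest in the same library of each group. In PTU, Efna1, Ephb4 and Robo4, which are known from blood vessels, were highest in mouse 10, at 3.39, 3.05 and 5.31 CPM, against at most 1.17, 1.86 and 1.93 CPM in the other PTU libraries. In PTU+TH these genes were highest in mouse 15, at 2.27, 2.59 and 3.27 CPM. Mouse 10 and mouse 15 were also the highest libraries of their groups in the endothelial list, the mural list (6 genes; 102.0 and 72.4 CPM) and the astrocyte list. Efna1 did not follow the endothelial order within PTU+TH, since mouse 14 was at 1.10 and mouse 13 at 0.97 CPM. The part of RNA of these cell types in the levels was not tested. The log2 fold changes of Efna1, Ephb4 and Robo4 were 0.02, 0.02 and -0.19 with SEs of 0.76, 0.59 and 0.56, so the SEs were larger than the differences. Efna1 had log2 fold changes of 0.74 with limma voom and 0.49 with the endothelial sum as a covariate in edgeR, with adjusted p = 0.759 and 0.778. Ntng2, at 1.88 to 6.28 CPM in PTU and 1.89 to 6.91 CPM in PTU+TH, was likewise highest in mice 10 and 15.

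The filter left out 3 members. Epha2 was at 0.044 to 1.77 CPM in PTU, again with the highest value in mouse 10, and at up to 0.681 CPM in PTU+TH. Efna4 was at 0.044 to 0.301 CPM in PTU, compared with up to 0.727 CPM in PTU+TH. Both had 0 counts in PTU+TH mouse 16, which allows up to 0.143 CPM (3 counts, for counting error only). Ntn5 had 4 counts over all 8 libraries, but 1.5% of its body is free of another gene, and genes inside other genes were mostly listed at 0 in these files, so this count is not read as absence.

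Levels of different genes were compared per kb of the gene body that is free of other genes, since nuclear RNA holds introns. Ephb6 was the highest member at 12.6 ± 1.28 CPM per kb (SD, n = 8), followed by the transmembrane ligand Efnb3 at 8.79 ± 1.43 and Epha10 at 7.40 ± 0.67 CPM per kb. Efnb3 and Epha10 overlapped in their spread. Within the other families the leading genes were Unc5c (1.41 ± 0.20 CPM per kb), Robo2 (1.37 ± 0.26), Ntn3 (1.86 ± 0.27) and Slit2 (0.92 ± 0.17). The levels of the called members differed between the groups and are given for each group. In PTU, Slit1 was the highest of the 6 at 0.729 ± 0.0586 CPM per kb (SD, n = 4), followed by Ntn4 at 0.379 ± 0.0573. Below them were Epha3 at 0.235 ± 0.0233 and Epha4 at 0.196 ± 0.0586, which overlapped in their spread, and then Robo3 at 0.117 ± 0.0185 and Ephb1 at 0.101 ± 0.0128 CPM per kb, which did too. In PTU+TH the means were 0.623 ± 0.448 for Robo3, 0.602 ± 0.0782 for Ntn4, 0.484 ± 0.0221 for Slit1, 0.441 ± 0.125 for Epha4, 0.325 ± 0.0355 for Epha3 and 0.24 ± 0.0386 CPM per kb for Ephb1. The libraries of Robo3 there spread over the means of the other 5. The order depends on the length used: per kb of merged exons, Epha6 was first at 73.6 and Unc5d second at 61.6 CPM per kb, and Ephb6 came next at 50.3 CPM per kb. The leading genes of the families changed with it. On exon length Unc5d led the netrin receptors, and Efna5 (48.7), Robo1 (48.4), Slit3 (27.2) and Ntn4 (12.5 CPM per kb) led their families.

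**Figure D4:**
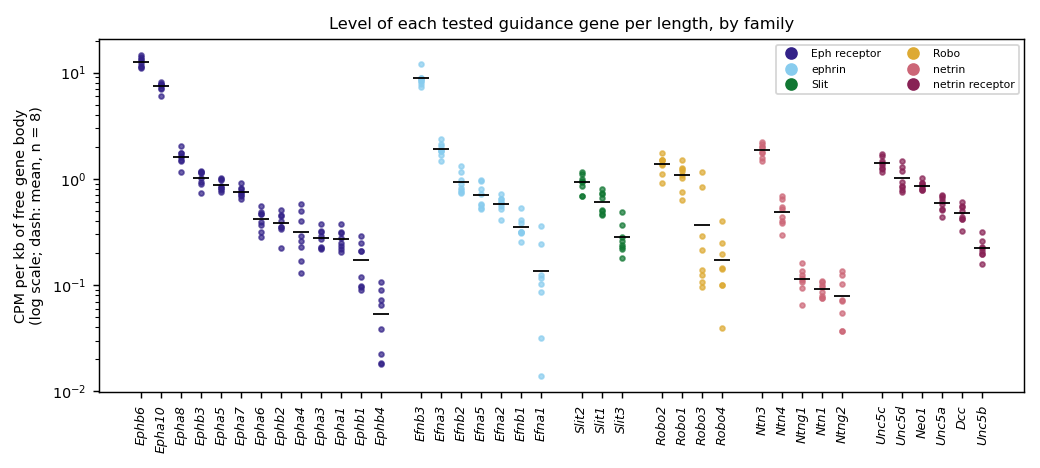
Level of each tested guidance gene per kb of free gene body on a log scale, by family, with 1 point per library and a dash at the mean of the 8 libraries. Ephb6, Efnb3 and Epha10 stand above all other members, and Robo3 and Efna1 show the widest spread between libraries for their level.

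Many members are among the longest genes of the genome, and their highest and lowest libraries were mostly those of the same mice. Of the 13 members with a body of at least 250 kb, a limit set after the values were seen, 12 were highest among the PTU libraries in mouse 11 and 11 lowest in mouse 9. In PTU+TH all 13 were highest in mouse 16, and the lowest library was mouse 14 for 8 and mouse 13 for 5. The share of counts taken by the 772 other tested genes of this length moved in the same way, with 20.8%, 23.3%, 30.9% and 28.9% in PTU and 25.0%, 25.1%, 27.8% and 30.4% in PTU+TH. Ephb1 (433 kb) and Epha3 (321 kb) are of this group. With an offset for gene length, added after the data were seen, 8 members were called, and 4.02% of all genes were, against 2.12% without it. These members were Ephb1, Ephb2, Robo1, Robo3, Ntn4 and Ntng1 higher and Slit1 and Slit3 lower, while Epha3 and Epha4 were not. With the offset, the log2 fold change of Epha3 was 0.39 (0.47 without it), and that of Epha4, whose body is 148 kb long, was 1.11 (1.17 without it).

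**Figure D5:**
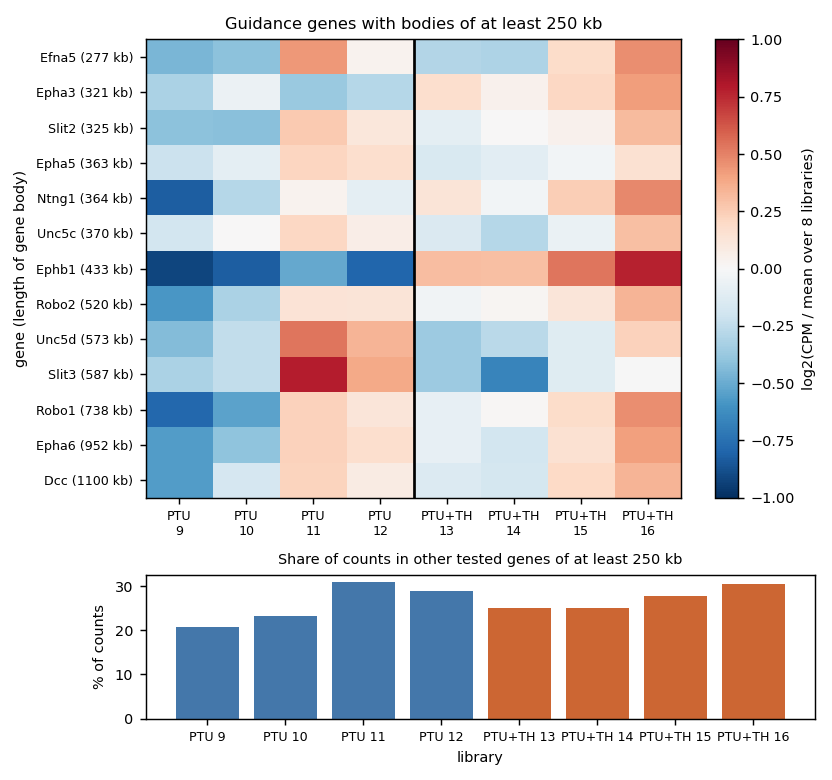
Top, CPM of the 13 guidance genes with bodies of at least 250 kb in each library, as log2 of the ratio to the gene's mean over 8 libraries; bottom, the share of counts in the 772 other tested genes of that length. PTU mouse 11 and PTU+TH mouse 16 are high for most genes, and in Ephb1 and Epha3 all PTU libraries are below all PTU+TH libraries.

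Genes that act with these receptors were taken from general knowledge in a pair of lists. Of 30 intracellular effectors, all tested, edgeR, DESeq2 and limma voom each called 1 higher and 0 lower. Of all genes, edgeR called 1.49% higher and 0.634% lower. In both directions together, DESeq2 called 4.27% of all genes and limma voom 2.03%. An unadjusted p under 0.05 in edgeR was found for 3, against 12.8% of all genes, with a list median log2 fold change of -0.0023. The called effector was Chn1, which encodes alpha-chimaerin, a Rac GTPase-activating protein that acts downstream of EphA4. Its PTU libraries were at 76.1, 75.0, 80.5 and 81.0 CPM and its PTU+TH libraries at 111.8, 110.2, 120.7 and 126.1 CPM, with no overlap. The log2 fold change was 0.58 (SE 0.08, n = 4 per group, adjusted p = 0.00209 in edgeR), and Chn1 was called under 16 of 17 alternatives, the exception being the 6 libraries holding Y-linked counts (0.06). Vav2, a Rac exchange factor recruited by Eph receptors, and Srgap1, a GTPase-activating protein that binds Robo1, had log2 fold changes of 0.27 and -0.30 (SE 0.11 and 0.13; adjusted p = 0.271 and 0.36 in edgeR), with groups that overlapped. With the offset for gene length, Srgap1 was called lower (log2 fold change -0.32, adjusted p = 0.0113).

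Of 17 ligands, coreceptors and proteases that pair with the members, 14 were tested. edgeR and limma voom called 1 higher and 0 lower, where they called 2.12% and 2.03% of all genes. An unadjusted p under 0.05 in edgeR was found for 4, against 12.8% of all genes, with a list median of -0.03. Adam10, the protease that sheds ephrins and other surface proteins, was at 70.1, 75.4, 69.4 and 65.6 CPM in PTU, compared with 87.1, 85.9, 96.1 and 93.2 CPM in PTU+TH. All PTU+TH libraries were above all PTU libraries (log2 fold change 0.37, SE 0.08, n = 4 per group, adjusted p = 0.0345 in edgeR), and the call was lost under 8 of 17 alternatives. These were library totals alone (adjusted p = 0.162), the 6 libraries holding Y-linked counts (0.341) and leaving out PTU mouse 11 or 12 (0.0785 and 0.115) or any 1 PTU+TH mouse (0.0654 to 0.115). Rgma, a ligand of neogenin, and Gpc1, a glypican that binds Slits, had log2 fold changes of 0.64 and -0.27 (SE 0.20 and 0.09; adjusted p = 0.156 and 0.175 in edgeR). DESeq2 also called Gpc1 lower (log2 fold change -0.28, adjusted p = 0.0353), and the offset for gene length also called Nell1, a relative of Nell2, lower. Nell2, the ligand of Robo3, and Lrrc4c, the partner of netrin-G1, had log2 fold changes of -0.05 and 0.26 (SE 0.10 and 0.21; adjusted p = 0.917 and 0.69 in edgeR). Flrt1, Flrt3 and Lrrc4, which lie inside other genes, were listed at 0 in every library, and this is not read as absence.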

How the data were processed

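Nuclear RNA of sorted cortical GABAergic nuclei was made into cDNA with SMART-Seq v4 and into libraries with Nextera XT, per the labels' protocols. The authors deposited raw read counts per gene symbol, 1 file per library. Bowtie2 2.5.3 and the build mm10 (GRCm38) are named in the submitters' processing notes. The counting program and its use of strand and introns are not given in the sources used here. The 55341 symbols equal those of GENCODE M21, used for positions and lengths. Of 1333 protein-coding genes with no base free of other genes, 1329 were at 0 in all libraries, so overlapping genes are uncertain.

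Groups came from the sample titles. The members, gene lists and tests were chosen with earlier results of these data known. Counts were fitted with edgeR 4.0.16 (R 4.3.3): filterByExpr (17355 genes kept), TMM scaling, robust quasi-likelihood test with the group as the only term, two-sided, adjusted by Benjamini-Hochberg over all genes kept, called under 0.05. CPM values use TMM-scaled library sizes, and SE is the log2 fold change over the root of F. P-values measure the spread between libraries of single mice. Alternatives used RLE or no scaling, DESeq2 1.42.0, limma voom 3.58.1, no filter, a threshold of 0.1, the 6 libraries holding Y-linked counts and leaving out each library. An offset for gene length and marker sums as covariates were added after seeing the data. Library pairs of a group differed by a chi-square of 8.87 to 79.8 per degree of freedom, so none was a copy of another. On simulated data for PTU+TH against PTU (17355 genes), edgeR recovered 29.5% of 200 genes with a true log2 change of 0.58 and 58.5% of 200 with a change of 1. Genes were named by rule: all members, the called genes of the effector and partner lists and the smallest p-values of each. Nell1, Nell2, Lrrc4c, Hepacam, Syt2, Calb1, Htr3a, Reln, Camk2a, Cux2, Slc17a7 and the genes listed at 0 were named after their values were seen.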

Additional observations from a re-analysis of the deposited data

Results flagged for a closer look

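Among 88 sets of 4 libraries, 2 held a library far from the rest of its group, fewer than the 4.4 that chance alone would give at 5%. For Ephb2, the library of PTU mouse 9 stood at 41.8 CPM while its group otherwise lay between 63.0 and 66.4 CPM, so that this gap made up 0.86 of the range. Efnb1, which encodes a transmembrane ephrin, was again set apart by PTU mouse 9, with 6.85 CPM beside values of 3.95 to 4.11 CPM and a gap of 0.946 of the range.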

How the results depend on the processing

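Ephb1 was called under every alternative run, Slit1 under all but 1, and the called members kept their direction under all 17. The count of all genes called, 368, became 601 at a threshold of 0.1, 741 with DESeq2, 698 with the offset for gene length and 58 in the 6 libraries holding Y-linked counts, where 1 member was called. Leaving out 1 library gave 182 to 499 genes and 3 to 6 members. The gene count was 499, 247, 295 and 233 without PTU mice 9, 10, 11 and 12, and 238, 227, 182 and 209 without PTU+TH mice 13, 14, 15 and 16. The cause of these differences was not tested. Of the other scalings, library totals alone shifted the median log2 fold change most, by -0.0212. No paired analysis was possible because the groups share no mouse numbers. With 4 libraries a group, many changes of a log2 fold of 1 or less were missed in simulated data (58.5% recovered at 1 and 29.5% at 0.58). Log2 fold changes of uncalled members that changed sign all had adjusted p-values over 0.7, and the cause was not tested. In the 6 libraries holding Y-linked counts, they were -0.029 for Epha6, 0.14 for Epha8, -0.27 for Ephb4, -0.29 for Efna1, -0.040 for Efna2, -0.25 for Efna5, -0.12 for Ntn1, -0.046 for Ntng2 and -0.075 for Dcc. With library totals alone, they were -0.040 for Ephb4, -0.049 for Efna1 and -0.0077 for Efna2. With the astrocyte sum as covariate, they were -0.42 for Ephb4, -0.056 for Efna1, -0.026 for Efna2, -0.0020 for Ntn1 and -0.098 for Ntng2. With limma voom, they were 0.073 for Robo4. Over fits that left out 1 library, the changes ran from -0.12 to 0.012 for Epha5, -0.22 to 0.051 for Epha8, -0.34 to 0.60 for Ephb4, -0.39 to 1.22 for Efna1, -0.10 to 0.15 for Efna2, -0.068 to 0.31 for Efna5, -0.21 to 0.12 for Efnb1, -0.19 to 0.065 for Efnb3, -0.52 to 0.57 for Robo4, -0.048 to 0.13 for Ntn1, -0.037 to 0.67 for Ntng2 and -0.19 to 0.012 for Unc5c.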
